A study of Spodoptera frugiperda with 3 samples.

Results

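The cold comparison covered every unigene listed by the authors for fall armyworm larvae (*Spodoptera frugiperda*) at 4 °C (T4) against 25 °C (T25, control). A unigene is 1 assembled transcript sequence of the de novo assembly. All 12173 unigenes of the T4/T25 table were taken, out of 30327 listed in at least 1 of the 3 deposited tables. The study itself reports far fewer unigenes as different at 4 °C, under a limit on a modified p-value and at least 4-fold. The T4 group was 1 library of 5 pooled wild type larvae held at 4 °C for 16 h, and the T25 control was 1 library of 5 pooled wild type larvae whose exposure time is not given in the sources used here. Another library of 5 larvae held at 40 °C for 16 h (T40) is used here only to give its read counts beside the others. All 3 groups were labelled as larvae of the fourth instar, as whole body, and with "The fall armyworm" as the strain. The study's methods name the fourth instar for the exposure but the fifth instar for the bodies from which RNA was isolated, so the stage behind each library is uncertain. Each library holds RNA of a pool, so no value could be set against the spread between larvae, and no test was made. In whole larvae, fewer cells of a type and less RNA per cell cannot be told apart.

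Caterpillars cannot warm themselves, and a cold period slows digestion, growth and moulting. Insects are known to meet cold with chaperones that refold proteins, with changes in membrane and surface lipids, with sugars and polyols that lower the freezing point, and with adjustments of ion transport, since cold disturbs the ion balance of nerve, muscle and gut. The fat body, the insect organ that combines the roles of liver and fat tissue, makes most of the blood proteins and lipids of the larva.

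Values below are read counts as estimated by the authors, and a pair written as "78 against 7 reads" gives T4 first and T25 second. A fold is the ratio of the counts divided by the effective library sizes that their normalization used, 36483914 reads for T4 and 28015943 for T25. That of T40 was 38643842 reads, so T40 counts are not on the same scale. The interval after a fold is a 95% exact (Clopper-Pearson) interval for counting error alone. T40 counts were taken from the other 2 tables, which hold none for 2471 of these unigenes. As the T40 and T4 comparisons share the T25 library, those counts are only set side by side. The listed unigenes held 9768594 reads in T4 and 4823713 in T25. Of the 12173 unigenes, 55.1% were higher at 4 °C and 44.9% lower, and the shares past 4-fold were 40.0% and 30.2%. Those were 4869 higher and 3673 lower, and with the summed listed reads as library sizes the balance turned, to 3101 higher and 5285 lower. The smallest listed fold was 2.35, so the table says nothing about unigenes with smaller or no difference, and the number of members of a family that stayed the same could not be counted.

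Most of the listed unigenes could not be named. An NR hit, that is a match in NCBI's protein database, was given for 3417, of which 49.4% were higher at 4 °C. The 8756 without an NR hit were higher in 57.3%. *S. litura* provided 71.1% of the NR hits, and 51.2% of those unigenes were higher. The 38 unigenes with a hit to a bacterial genus in the protein or nucleotide database are described at the end. Low counts were common, with 57 reads as the median in the higher library and at most 3 reads in the lower library for 3536 unigenes. Where an NR hit was given, that median was 221 reads. The gene lists below are therefore read against the 49.4% of unigenes with an NR hit. Several lists hold few unigenes, and no share was tested.

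**Figure D1:**
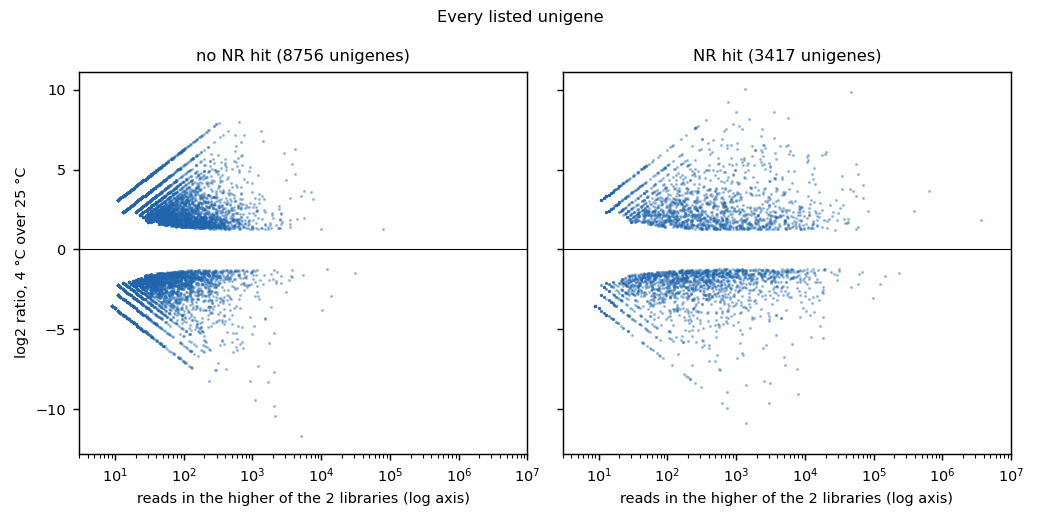
Log2 ratio of T4 over T25 (y axis) against the reads in the higher of the 2 libraries (log x axis) for 8756 listed unigenes without an NR hit (left) and 3417 with one (right), 1 point per unigene. The empty band around 0 is the smallest listed fold of 2.35, and the parallel lines at low counts are unigenes with 1, 2 or 3 reads in the lower library.

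The study designed PCR primers for 7 unigenes of the table. The primer pairs for 4 of them are shown here, because they mark, in the order given, a chaperone and a wax enzyme that were higher at 4 °C, a hormone-degrading enzyme that was also higher, and a sphingolipid enzyme that was lower. Each is written 5′ to 3′ with no letter singled out.
HSP68-like, c180345_g2_i1, forward: cgaggagtgcctaagattgatg
HSP68-like, c180345_g2_i1, reverse: cgacccttgtcgttcttgatta
fatty acyl-CoA reductase wat-like, c179097_g1_i1, forward: gctccagtagacatggtgaataa
fatty acyl-CoA reductase wat-like, c179097_g1_i1, reverse: tggagctgacggtatagatagg
juvenile hormone epoxide hydrolase-like, c179215_g2_i2, forward: tcgattacggaggccatttc
juvenile hormone epoxide hydrolase-like, c179215_g2_i2, reverse: gttactaggtggcgccttatt
3-ketodihydrosphingosine reductase, c170666_g1_i1, forward: gcttgtaggcacaaatgttagg
3-ketodihydrosphingosine reductase, c170666_g1_i1, reverse: ttgtctcctctggtttggttag

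Blood proteins of the fat body gave the largest differences in RPM, the count divided by the effective library size and multiplied by 1000000. The methionine-rich storage protein unigene c188452_g2_i4, an amino acid reserve that larvae build up before pupation, had 3611733 reads in T4, 762040 in T25 and 271034 in T40. It was 3.64-fold higher, 95% counting interval 3.63 to 3.65, and it held 37.0% of the listed reads of T4 and 15.8% of those of T25. Without it, the listed unigenes held 6156861 reads in T4 and 4061673 in T25. The vitellogenin-like unigene c188857_g1_i1, of a family of large lipid-carrying yolk proteins, had 641363 reads in T4 and 38644 in T25 (12.7-fold higher, interval 12.6 to 12.9) and 38010 in T40. The T25 and T40 counts of that unigene were close, but the T40 library was larger, so its scaled level lay below that of T25. The T4 level stood above both. All 6 vitellogenin-like unigenes were higher at 4 °C, but c188857_g1_i1 held nearly all of their 642039 reads in T4 and 38686 in T25. Apolipophorins, the core protein of the particle that carries lipids through insect blood, had 380781 reads in T4 and 55061 in T25 for c189548_g1_i1 (5.31-fold higher, interval 5.26 to 5.36), with 505139 in T40.

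Not every blood protein went this way. Transferrin, the iron carrier c183902_g1_i2, had 5323 reads in T4 and 15095 in T25 (3.69-fold lower, interval 3.58 to 3.81). The microvitellogenin-like unigene c185826_g1_i1 had 2 reads in T4 against 145 in T25, while its relative c182528_g1_i1 had 74 against 2. Of the 14 unigenes that the list of storage and transport proteins took in, 10 were higher and 4 lower. Its search words also matched 2 pyruvate dehydrogenase kinases and 2 fibrohexamerins, and without those the split was 8 to 2. The Niemann-Pick type 1b-like unigene c179201_g2_i1, a sterol transporter of the midgut in Drosophila, had 55402 reads in T4, 1062 in T25 and 65079 in T40, and was 40.1-fold higher, interval 37.7 to 42.6.

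**Figure D2:**
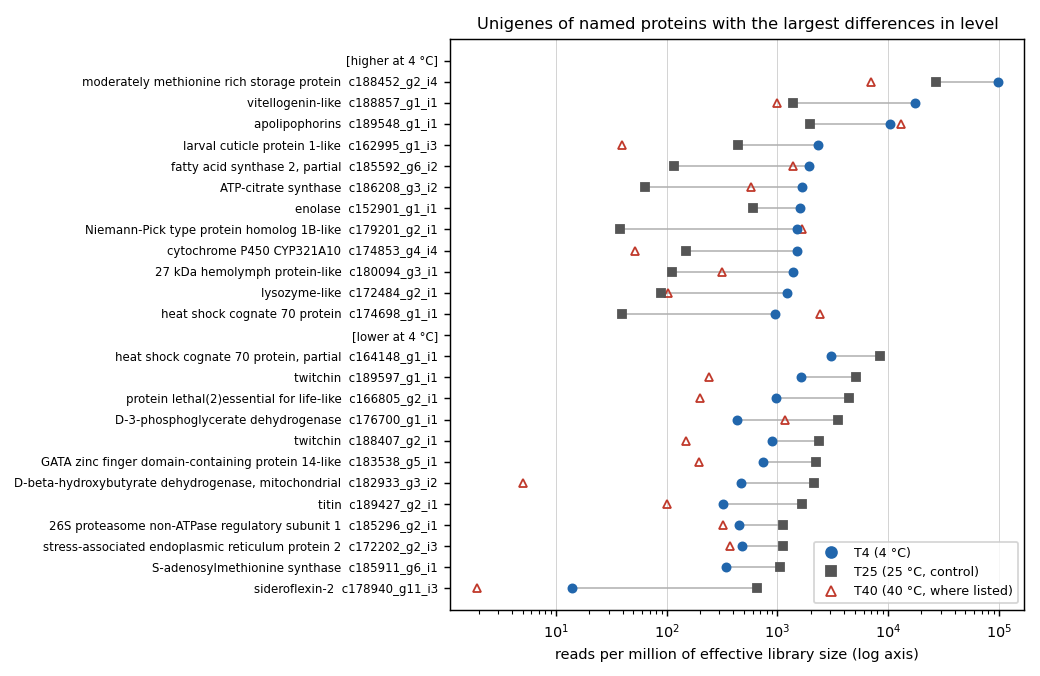
RPM, the count scaled by the effective library size (log x axis), of the 24 unigenes of named proteins that differed most in that unit, 12 in each direction, with T4 as filled circles, T25 as squares and T40 as open triangles where a count is listed. The storage protein stands at the far right with 3611733 reads in T4, and T40 lies below T25 for the vitellogenin-like, larval cuticle protein and CYP321A10 unigenes but above it for apolipophorins.

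Fatty acid synthesis and the steps that follow it were mostly higher at 4 °C. The enzymes build long acyl chains from acetyl-CoA, and elongases, desaturases, reductases and a CYP4G enzyme then turn some of them into the waxes and hydrocarbons that waterproof the cuticle. ATP-citrate synthase, the supplier of acetyl-CoA in the cytosol, had 60317 reads in T4 and 1777 in T25 for c186208_g3_i2 and 22274 in T40. Fatty acid synthase was represented by 4 unigenes, and all 4 were higher at 4 °C. The largest of them by reads, c185592_g6_i2, had 70387 reads in T4 and 3264 in T25 (16.6-fold higher, interval 16.0 to 17.2) and 53855 in T40. Another, c188412_g1_i1, had 10670 reads in T4 and 186 in T25 (44.1-fold higher, interval 38.1 to 51.2) but 320 in T40. The synthase c184926_g1_i1 had 13256 reads in T4, 485 in T25 and 868 in T40. The first of these stayed abundant at 40 °C, and the others were near their control counts there.

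Desaturases and reductases went the same way. All 4 desaturase unigenes were higher, among them the acyl-CoA delta(11) desaturase-like c181781_g1_i4, which places a double bond in the acyl chain, with 24579 reads in T4 and 4339 in T25 (4.35-fold higher, interval 4.21 to 4.49) and 4868 in T40. The sterol desaturase-like unigene c170518_g1_i1 of the same list acts on sterols and had 32664 reads in T4 and 4109 in T25. Fatty acyl-CoA reductases, which reduce acyl-CoA to fatty alcohols, were listed with 6 unigenes, all higher at 4 °C, and their median log2 ratio was 5.49. The median over all unigenes with an NR hit was -1.25, in a table where no ratio lies near 0. The wat-like reductase c22131_g1_i1 had 5942 reads in T4 and 74 in T25 (61.7-fold higher, interval 49.0 to 78.6) and 44 in T40. The unigene c179097_g1_i1, whose primers are shown above, had 853 reads in T4 and 7 in T25 (93.6-fold higher, interval 45.2 to 233) and 3 in T40. At 40 °C the 6 reductases had 3 to 114 reads, and each count was below that of T4.

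Elongation was higher in 11 of 14 unigenes. The unigene c37997_g1_i1 had 2445 reads in T4 and 33 in T25 (56.9-fold higher, interval 40.4 to 82.8) and 2 in T40, and c176779_g1_i1 had 3032 reads in T4 and 120 in T25. The other steps of the elongation cycle, 2 hydroxyacyl-CoA dehydratases and the enoyl-CoA reductase c173799_g1_i1 (1891 against 410 reads), were also higher. Lower were 3 elongases, of which c180757_g2_i1 had 81 reads in T4 and 675 in T25 (10.9-fold lower, interval 8.61 to 13.8). CYP4G enzymes, which in Drosophila make hydrocarbons from aldehydes, were listed with 7 unigenes, 5 higher and 2 lower. CYP4G75, c182447_g6_i1, had 34823 reads in T4 and 1974 in T25 (13.5-fold higher, interval 12.9 to 14.2) and 453 in T40. CYP4G74, c182447_g5_i2, had 19589 reads in T4 and 238 in T25 (63.2-fold higher, interval 55.6 to 72.1) and 260 in T40. The 2 that were lower, both 4g1-like, had at most 29 reads in T25. Summed over the 7 unigenes, the CYP4G level was 1877 RPM in T4 and 90.4 in T25.

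**Figure D3:**
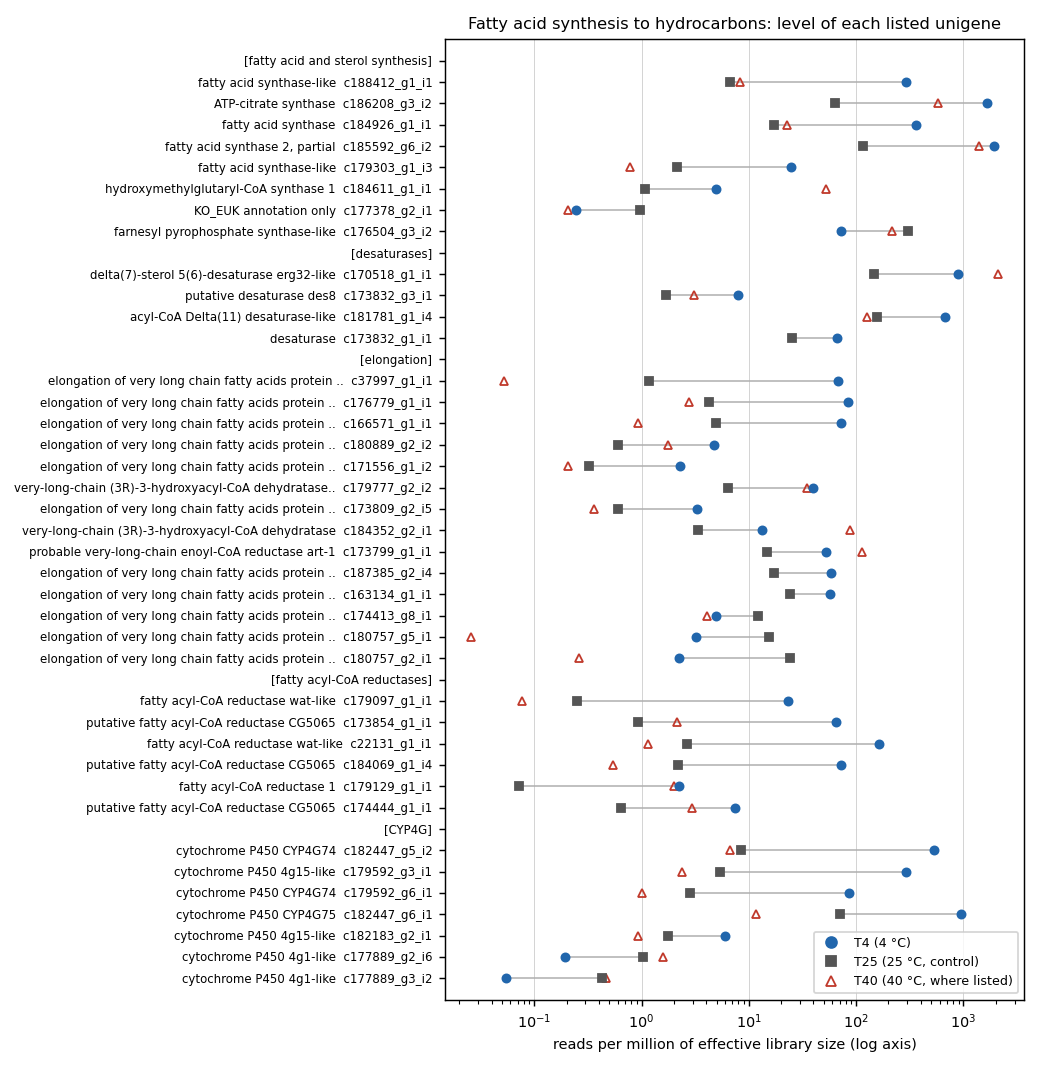
RPM, the count scaled by the effective library size (log x axis), of every listed unigene of fatty acid and sterol synthesis, desaturation, elongation, acyl-CoA reduction and CYP4G, with T4 as filled circles, T25 as squares and T40 as open triangles. In all 6 reductases and all 4 fatty acid synthases T4 lies to the right of T25, while 3 elongases and 2 CYP4G unigenes lie to the left.

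Enzymes of isoprenoid synthesis and the sphingolipids differed from this. Farnesyl pyrophosphate synthase, c176504_g3_i2, which makes the precursor of juvenile hormone and of other isoprenoids, had 2612 reads in T4 and 8438 in T25 (4.21-fold lower, interval 4.03 to 4.40). The unigene c177378_g2_i1, named isopentenyl-diphosphate isomerase by its KO_EUK annotation alone, was lower as well, at 9 against 27 reads. Sphingolipid enzymes were higher in 3 unigenes and lower in 6, with a summed level of 390 RPM in T4 and 342 in T25. The first enzyme after chain condensation, 3-ketodihydrosphingosine reductase c170666_g1_i1, had 8 reads in T4 and 209 in T25 (34.0-fold lower, interval 17.0 to 79.8) and 2535 in T40. A ceramide synthase 6-like unigene, c171489_g11_i1, had 53 reads in T4 and 242 in T25. Sphingomyelin phosphodiesterase was split, with c178618_g1_i1 at 9550 against 2521 reads and c182700_g1_i1 at 1617 against 4182 reads.

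Lipases, which release fatty acids from fats, were listed with 33 unigenes, 23 higher and 10 lower. The highest ratio was that of c155555_g1_i2, with a log2 ratio of 8.63. Next came its neighbour in the assembly, c155555_g4_i1, with 277 reads in T4, 1 in T25 and 2376 in T40. The unigene c155555_g3_i1 of that component had 121 against 6 reads. The lipase member H-like c232642_g1_i1 had 9048 reads in T4 and 1117 in T25 (6.22-fold higher, interval 5.84 to 6.62). On the other side, c183658_g5_i1 had 188 reads in T4 and 3000 in T25 (20.8-fold lower, interval 17.9 to 24.2) and c170786_g1_i1 had 25 against 562 reads with 3387 in T40. Enzymes that handle glycerolipids without being lipases were split 8 to 6. Choline/ethanolamine kinase, the entry to the main membrane phospholipids, had 1099 reads in T4 and 99 in T25 for c186431_g3_i1 (8.52-fold higher, interval 6.93 to 10.6). Phosphatidate phosphatase was found on both sides, at 251 against 4 reads for c174005_g1_i1 and 124 against 3841 reads for c180815_g1_i1.

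Fatty acid activation and oxidation were higher in 13 of 18 unigenes, a count that includes the 2 hydroxyacyl-CoA dehydratases of elongation. Their summed level was 1001 RPM in T4 against 1202 in T25. Most of the T25 sum came from the carnitine transporter-like c146278_g2_i1 given below. The other unigenes of the list together were higher in T4 than in T25. Peroxisomal acyl-CoA oxidase, the first step of fat oxidation in that organelle, had 1175 reads in T4 and 91 in T25 for c142545_g1_i1 (9.92-fold higher, interval 8.01 to 12.4) and 18006 in T40. The mitochondrial 3-ketoacyl-CoA thiolase c167808_g1_i1, at the last step, had 5249 reads in T4, 1688 in T25 and 17919 in T40. The carnitine transporter-like unigene c146278_g2_i1 was lower, with 11875 reads in T4 and 26135 in T25 (2.87-fold lower, interval 2.80 to 2.93) and 1063 in T40. D-beta-hydroxybutyrate dehydrogenase, c182933_g3_i2, of ketone body metabolism, had 17042 reads in T4 and 59409 in T25 (4.54-fold lower, interval 4.46 to 4.62) and 194 in T40.

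All 12 unigenes of glycolysis and the pentose phosphate pathway were higher at 4 °C, and their folds stayed small, with a median of 3.40. The pentose phosphate pathway supplies the NADPH that fatty acid synthesis consumes. Its first enzyme, glucose-6-phosphate 1-dehydrogenase c177205_g1_i1, had 14500 reads in T4 and 2341 in T25 (4.76-fold higher, interval 4.55 to 4.97) and 2808 in T40. The next dehydrogenase, c177515_g8_i1, which acts on 6-phosphogluconate, had 12957 reads in T4, 2891 in T25 and 29912 in T40. Transketolase-like c183128_g9_i2 had 36765 reads in T4 and 7447 in T25. Enolase, c152901_g1_i1, of glycolysis, had 58391 reads in T4 and 17034 in T25 (2.63-fold higher, interval 2.59 to 2.68).

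Glycogen and polyol enzymes were fewer. Glycogen synthase was listed as 2 fragments, c186716_g2_i1 with 697 reads in T4 and 37 in T25 (14.5-fold higher, interval 10.4 to 20.7) and c186716_g1_i1 with 107 against 14 reads. Phosphoglucomutase, which links glycogen to glycolysis, was higher for c187822_g5_i5 (4943 against 342 reads) and lower for the phosphoglucomutase-2 unigene c182485_g1_i1 (632 against 1220 reads). Glycerol-3-phosphate dehydrogenase c182709_g5_i1, on the way to glycerol and to fat, had 20993 reads in T4 and 4728 in T25 (3.41-fold higher, interval 3.30 to 3.52) and 24040 in T40. Sorbitol dehydrogenase-like c182750_g1_i1 had 81 reads in T4 and 253 in T25. Inositol oxygenase-like c184326_g3_i3, which degrades inositol, had 5053 reads in T4 and 355 in T25 (10.9-fold higher, interval 9.81 to 12.2) and 259 in T40. The 14 polyol unigenes were split 7 to 7, with 4 AKR2E4-like aldo-keto reductases of which 1 was higher and 3 were lower, the latter led by c186858_g6_i1 with 2570 reads in T4 and 14827 in T25.

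Trehalose is the blood sugar of insects, and its carriers were split, with 14 of the 27 Tret1-type trehalose transporters higher and 13 lower. Their summed level was 625 RPM in T4 and 1114 in T25. The highest ratio was that of c173006_g2_i6 with 2973 reads in T4 and 53 in T25, and the lowest that of c185110_g6_i1 with 51 reads in T4 and 724 in T25. The water channel aquaporin-11, c184101_g1_i4, had 758 reads in T4 and 1416 in T25 (2.43-fold lower, interval 2.23 to 2.66) and 118 in T40, and the mitochondrial uncoupling protein c186399_g1_i4, which lets protons leak across the inner membrane, had 75 reads in T4 and 939 in T25 (16.3-fold lower, interval 12.9 to 20.9).

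In amino acid metabolism 5 unigenes were higher and 7 lower, but the summed level was 1341 RPM in T4 against 5610 in T25. The list was dominated by D-3-phosphoglycerate dehydrogenase c176700_g1_i1, the first step of serine synthesis, with 15839 reads in T4 and 99073 in T25. S-adenosylmethionine synthase, which makes the main methyl donor, had 12586 reads in T4 and 29549 in T25 for c185911_g6_i1 (3.06-fold lower, interval 2.99 to 3.12). Glycine N-methyltransferase c180204_g1_i1, which consumes that donor, was on the other side with 3767 reads in T4 and 112 in T25 (25.8-fold higher, interval 21.4 to 31.5). The aminotransferase of the neurotransmitter GABA, c176195_g12_i1, had 4629 reads in T4 and 18371 in T25.

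Heat shock proteins hold unfolded proteins and help them refold. The Hsp70 family was listed with 3 unigenes that differed in kind. The HSP68-like unigene c180345_g2_i1 had 2 reads in each of T25 and T40 beside its 1005 in T4. The heat shock cognate c174698_g1_i1 had 34734 reads in T4 and 1100 in T25 (24.2-fold higher, interval 22.8 to 25.8) and 94082 in T40. The most abundant, c164148_g1_i1, was lower at 111746 reads in T4 and 237202 in T25 (2.76-fold lower, interval 2.74 to 2.78), so that the summed level of the 3 unigenes was 4042 RPM in T4 and 8506 in T25.

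Small heat shock proteins, which keep unfolded proteins from clumping, showed the same kind of contrast. Of 5 unigenes matched to lethal(2)essential for life, 4 were higher and 1 lower at 4 °C. The highest ratio was that of c177818_g1_i1 with 541 reads in T4 and 10 in T25 (41.5-fold higher, interval 22.4 to 87.1) and 12 in T40. The unigene c173498_g2_i1 had 5210 reads in T4, 1104 in T25 and 22 in T40. The one that was lower, c166805_g2_i1, had by far the most reads, at 35792 against 124947 reads (4.55-fold lower), with 7807 in T40.

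Chaperones of the endoplasmic reticulum (ER), where secreted proteins are folded, were higher in 6 of 10 unigenes, and without the peptidyl-prolyl isomerases, several of which are splicing proteins, in 3 of 4. Endoplasmin, the Hsp90 of the ER, had 8601 reads in T4 and 1466 in T25 for c168634_g1_i1 (4.51-fold higher, interval 4.26 to 4.77) and 44245 in T40. Hypoxia up-regulated protein 1, c50639_g1_i1, had 4842 reads in T4 and 820 in T25, and protein disulfide-isomerase A6, c185920_g2_i1, had 3621 against 761 reads. The exception was a calreticulin unigene, c184377_g1_i1, at 41 against 131 reads. The DnaJ partner of that compartment, shv c164307_g1_i1, had 3067 reads in T4, 268 in T25 and 12707 in T40. Kinases that phosphorylate eIF2-alpha and slow translation under stress, with their activator GCN1, were listed with 5 unigenes, all higher at 4 °C, the most abundant being c185682_g1_i1 with 742 reads in T4 and 150 in T25 (3.80-fold higher, interval 3.18 to 4.56).

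**Figure D4:**
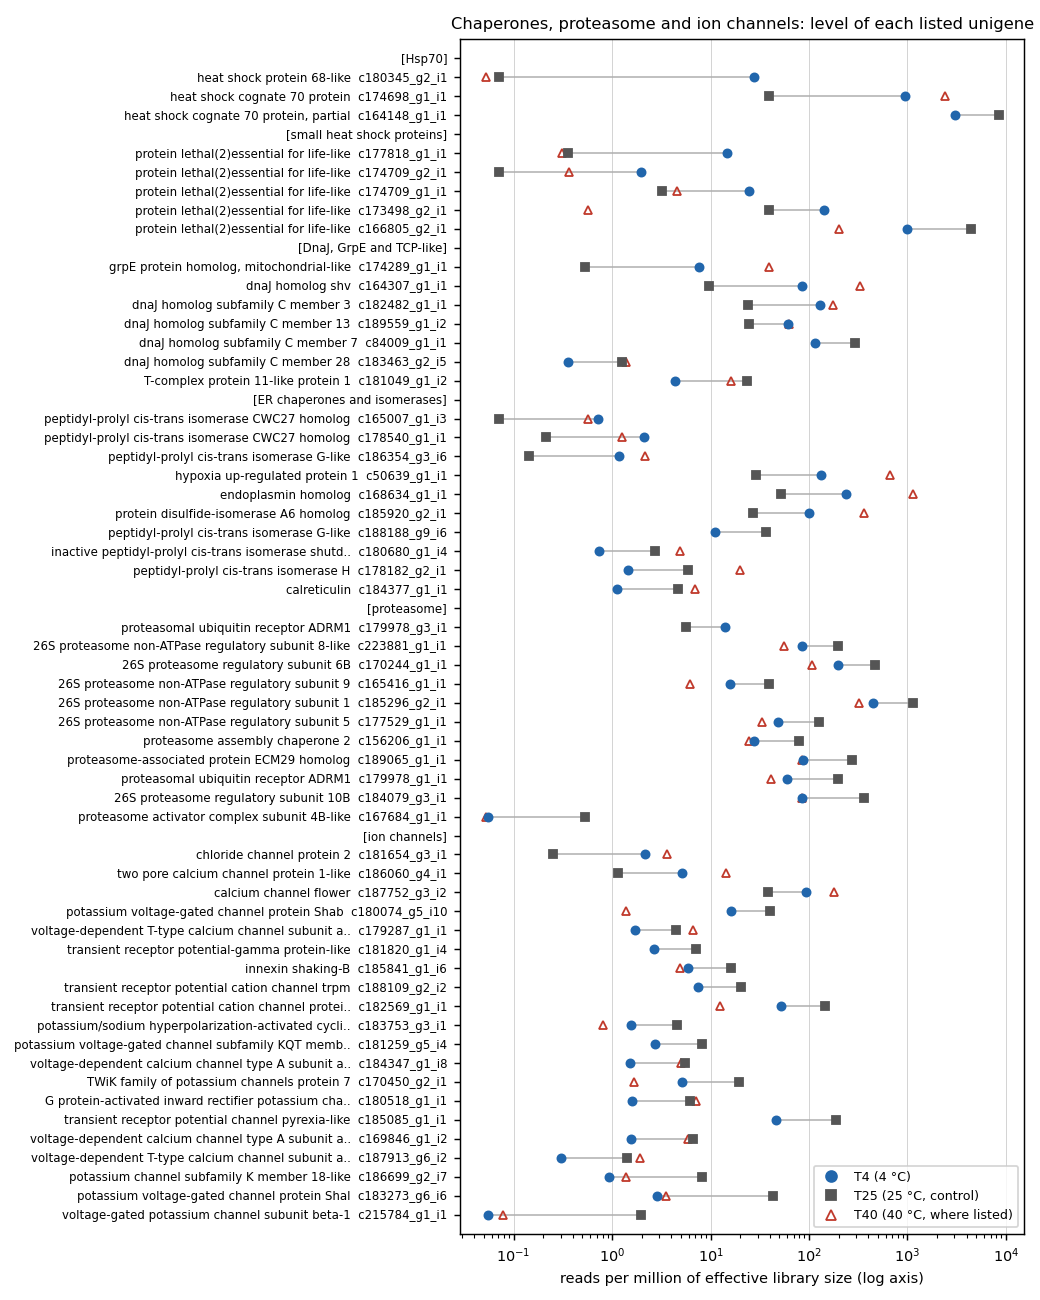
RPM, the count scaled by the effective library size (log x axis), of every listed unigene of the chaperone, proteasome and ion channel lists, with T4 as filled circles, T25 as squares and T40 as open triangles where a count is listed. HSP68-like stands at 1005 reads in T4 against 2 in T25, and T4 lies to the left of T25 in 10 of 11 proteasome and 17 of 20 ion channel unigenes.

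Unigenes of protein breakdown were mostly lower. The proteasome, which degrades proteins tagged with ubiquitin, was lower at 4 °C in 10 of 11 unigenes, and the median fold of those that were lower was 2.73. All 6 unigenes of the 26S regulatory particle were lower, with a summed level of 882 RPM in T4 and 2324 in T25. The largest, regulatory subunit 1 c185296_g2_i1, had 16417 reads in T4 and 31696 in T25 (2.51-fold lower, interval 2.47 to 2.56) and 12594 in T40. Regulatory subunit 10B, c184079_g3_i1, an ATPase that unfolds substrates, had 3120 reads in T4 and 10078 in T25 (4.21-fold lower, interval 4.04 to 4.38) and 3246 in T40. The single exception, c179978_g3_i1 with 517 against 159 reads, was matched to the ubiquitin receptor ADRM1, and the other ADRM1 unigene, c179978_g1_i1, was lower at 2168 against 5477 reads.

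The ubiquitin system was lower in 28 of 38 unigenes. Past 4-fold 7 were higher and 8 lower (46.7% higher), beside 1146 higher and 944 lower of all unigenes with an NR hit. Ubiquitin conjugation factor E4 B, c182207_g1_i1, which lengthens ubiquitin chains, had 4468 reads in T4 and 11465 in T25 (3.34-fold lower, interval 3.23 to 3.46). Cullin-2, c159380_g1_i6, the scaffold of a ubiquitin ligase, had 3237 reads in T4 and 8488 in T25. Autophagy and lysosome unigenes were lower in 7 of 10, among them lysosomal beta-N-acetylglucosaminidase c185248_g1_i2 with 3532 reads in T4 and 18199 in T25 (6.71-fold lower, interval 6.47 to 6.96), and a LAMP2-like unigene, c185426_g2_i1, with 1902 against 7688 reads. Apart from these, F-box only protein 32 c181565_g3_i1, which in mammals drives muscle protein loss, had 177 reads in T4 and 399 in T25.

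Ion channels were lower in 17 of 20 unigenes. These proteins set the excitability of nerve and muscle, and several of the TRP family sense temperature in Drosophila. All 4 TRP unigenes were lower, with a summed level of 107 RPM in T4 and 361 in T25. Pyrexia-like c185085_g1_i1, a heat-gated channel in flies, had 1670 reads in T4 and 5300 in T25 (4.13-fold lower, interval 3.91 to 4.37), and painless-like c182569_g1_i1, another heat sensor of flies, had 1878 reads in T4, 4058 in T25 and 484 in T40. All 8 potassium channel unigenes were lower too. Among them the voltage-gated Shal c183273_g6_i6 had 104 reads in T4 and 1194 in T25 (15.0-fold lower, interval 12.2 to 18.4) and 135 in T40, and Shab c180074_g5_i10 had 592 against 1118 reads. The 4 voltage-dependent calcium channel unigenes were lower with at most 184 reads in T25. Higher were chloride channel protein 2 c181654_g3_i1 (78 against 7 reads), an endosomal calcium channel, c186060_g4_i1 (185 against 32 reads), and the vesicle protein flower, c187752_g3_i2 (3379 against 1072 reads).

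Neural unigenes were split 13 to 13. Nicotinic acetylcholine receptor subunits, which receive the main excitatory signal of the insect brain, were higher in 3 of 3 unigenes, with 751 reads in T4 and 25 in T25 for c179597_g3_i2 (23.1-fold higher, interval 15.5 to 35.9) and 159 against 1 reads for c174636_g1_i1. Neuropeptides and the proteins that process them were lower in 5 of 5, including allatostatin c181617_g1_i1 (30 against 100 reads), the neuroendocrine protein 7B2 c171960_g1_i2 (13 against 87 reads) and a neuropeptide precursor c175008_g1_i1 (53 against 330 reads). The excitatory amino acid transporter c177179_g13_i3, which clears glutamate, had 56 reads in T4 and 2726 in T25 (63.4-fold lower, interval 48.7 to 84.1) and 10 in T40.

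Among 67 solute carriers 37 were higher and 30 lower, and the summed level was 1455 RPM in T4 against 2107 in T25. Such a sum can rest on few abundant unigenes. Whether it stays lower without sideroflexin-2, given below with 18409 reads in T25, was not computed. Monocarboxylate transporters, which carry lactate and pyruvate, were higher in 7 of 10, and proton-coupled amino acid transporters, which take up small amino acids, were lower in 5 of 5. Of these, c187340_g1_i3 had the most reads, with 1764 reads in T4 and 3424 in T25. Sideroflexin-2, c178940_g11_i3, a mitochondrial carrier, had 511 reads in T4 and 18409 in T25 (46.9-fold lower, interval 43.0 to 51.3) and 74 in T40. The solute carrier family 28 unigene c185959_g2_i1, of nucleoside uptake, had 1441 reads in T4 and 29 in T25 (38.2-fold higher, interval 26.5 to 57.2).

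Enzymes of detoxification were mostly higher. Cytochrome P450 enzymes, which oxidise plant toxins, insecticides, hormones and fatty acids, were listed with 47 unigenes, 30 higher and 17 lower. The CYP321 family, known in this and related moths for the breakdown of plant toxins and insecticides, was higher in 5 of 5. CYP321A10 c174853_g4_i4 had 55312 reads in T4 and 4155 in T25 (10.2-fold higher, interval 9.90 to 10.6) and 2004 in T40. The P450 6AE44 unigene c182193_g6_i1 had 5997 reads in T4 and 65 in T25 (70.8-fold higher, interval 55.5 to 91.9) and 17 in T40, while CYP6B50, c189635_g1_i1, had 2499 against 21 reads and 13705 in T40. Lower were CYP340L1 c179255_g1_i1 with 4 reads in T4 and 556 in T25 (181-fold lower, interval 70.3 to 667), CYP9A27 c184847_g10_i1 with 4 against 397 reads, and the CYP6B42 unigene c181951_g7_i1 with 12 against 1024 reads.

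Conjugating enzymes attach sugar or glutathione to such products. All 11 glutathione S-transferase unigenes were higher, with a summed level of 670 RPM in T4 and 136 in T25, and the one with most reads was c186504_g9_i1 with 9798 reads in T4, 1803 in T25 and 15529 in T40. UDP-glycosyltransferases were higher in 9 of 11. The UGT unigene c181642_g4_i1 had 8849 reads in T4 and 1069 in T25 (6.36-fold higher, interval 5.96 to 6.78) and 4 in T40, and c167693_g1_i1 had 230 against 2 reads and 916 in T40. Carboxylesterases were higher in 16 of 21, the highest ratio being that of an acetylcholinesterase-like unigene, c172711_g2_i1, with 775 reads in T4, 1 in T25 and 2947 in T40. With 1 read in T25 its fold of 595 has an interval of 106 to 23536. Antioxidant enzymes were few. Peroxiredoxin-5 c177715_g1_i1, which removes peroxides in mitochondria, had 15036 reads in T4 and 4126 in T25 (2.80-fold higher, interval 2.70 to 2.90), and the peroxidase-like c174719_g1_i1 was lower at 11 against 2536 reads (300.2-fold lower, interval 168 to 602), with 1 in T40. Another peroxidase-like unigene, c178414_g2_i1, had 27 reads in T4, 4 in T25 and 28528 in T40.

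Sugar-cleaving enzymes of the gut were found on both sides. Maltases, which split the products of starch, were higher in 10 of 10 unigenes, with a summed level of 119 RPM in T4 and 16.3 in T25. Myrosinases, beta-glucosidases named after the enzymes of mustard oil release in plants, were lower in 10 of 12, with a summed level of 79.5 RPM in T4 and 308 in T25. The maltase A1-like c179745_g1_i1 had 1026 reads in T4 and 64 in T25 (12.3-fold higher, interval 9.56 to 16.1) and 20687 in T40. The myrosinase 1-like c182849_g2_i1 had 18 reads in T4 and 1237 in T25 (89.5-fold lower, interval 56.4 to 152) and 2401 in T40. Alpha-amylase c29579_g1_i1, which digests starch, was lower at 6605 against 13708 reads and had 67643 in T40. Both families were grouped after their values had been seen.

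Digestive serine proteases were split 16 to 13 in a list that also took in antichymotrypsins, which are inhibitors. The alkaline trypsin c175337_g3_i1 had 2558 reads in T4 and 48 in T25 (40.9-fold higher, interval 30.8 to 55.6) and its relative c181312_g4_i1 had 1806 reads in T4 and 8295 in T25, so the trypsins alone stood on both sides. The collagenase-like c182101_g2_i1 had 22453 reads in T4 and 4646 in T25. Of the gut lining, 2 peritrophins, chitin-binding proteins of the sleeve around the food, were higher, c179826_g3_i2 with 2580 reads in T4 and 21 in T25 (94.3-fold higher, interval 61.6 to 153) and 21428 in T40. Mucins, the glycoproteins of gut slime, were lower in 10 of 13, among them c182172_g4_i2 with 2328 reads in T4 and 16225 in T25 (9.08-fold lower, interval 8.69 to 9.48) and 291 in T40.

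Cuticle proteins, which build the body wall with chitin, were split 6 to 5. Larval cuticle protein 1-like c162995_g1_i3 had 84275 reads in T4 and 12424 in T25 (5.21-fold higher, interval 5.11 to 5.31) and 1538 in T40, and LCP-17-like c183811_g3_i1 had 8365 against 1108 reads. On the other side, LCP-30-like c154439_g1_i1 had 3709 reads in T4 and 17923 in T25 (6.29-fold lower, interval 6.07 to 6.52) and 33 in T40.

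Antimicrobial peptides, which the fat body releases against microbes, were divided 6 to 5 with large differences on both sides. Higher were a defensin c160379_g1_i1 with 1864 reads in T4 and 19 in T25 (75.3-fold higher, interval 48.1 to 125) and 4708 in T40, a lebocin c174024_g7_i1 with 11247 reads in T4 and 145 in T25 (59.6-fold higher, interval 50.6 to 70.7) and 573 in T40, and cecropin A2 c178642_g4_i2 with 16282 reads in T4 and 2554 in T25. Attacin-like c180836_g3_i3 had 3012 reads in T4, 361 in T25 and 12 in T40. The lysozyme-like c172484_g2_i1, which cuts bacterial cell walls, had 44749 reads in T4 and 2471 in T25 (13.9-fold higher, interval 13.4 to 14.5), while the lysozyme-like c177869_g15_i1 had 5 against 494 reads (129-fold lower, interval 54.8 to 398). Diapausin, c151342_g1_i1, an antifungal peptide, was lower at 189 against 1537 reads. Recognition and signalling unigenes were lower in 10 of 15, a list that also took in an otubain, and summed to 636 RPM in T4 and 591 in T25. Toll-interacting protein c187667_g1_i4 had 1194 reads in T4 and 3728 in T25, and hemolin-like c185845_g9_i1, a recognition protein of moths, had 31 against 260 reads.

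The list of melanization, the blackening reaction of wounds, and of serine protease inhibitors had 7 unigenes higher and 4 lower. Prophenoloxidase subunit 1 c185950_g2_i1, the key oxidase, had 950 reads in T4 and 2399 in T25 (3.29-fold lower, interval 3.05 to 3.55). Prophenol oxidase activating enzyme 3 was on both sides. Its unigene c183976_g2_i1 had 3633 against 561 reads (4.97-fold higher), and c183614_g4_i1 had 34 against 112 reads (4.29-fold lower). The 27 kDa hemolymph protein-like c180094_g3_i1 had 50818 reads in T4 and 3144 in T25 (12.4-fold higher) and 12218 in T40. The serine protease inhibitor 2.1-like c174079_g1_i1 had 2418 reads in T4 and 264 in T25.

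Juvenile hormone keeps the insect larval, and an esterase and an epoxide hydrolase degrade it. All 3 epoxide hydrolase unigenes were higher at 4 °C, c179093_g2_i1 with 16356 reads in T4 and 1642 in T25 (7.65-fold higher, interval 7.27 to 8.05) and 20586 in T40, c181284_g10_i1 with 13431 reads in T4 and 307 in T25 (33.6-fold higher, interval 30.0 to 37.7), and c179215_g2_i2, whose primers are shown above, with 121 reads in T4, 12 in T25 and 9298 in T40. Esterases of juvenile hormone were split, with 3 higher and 4 lower, the most abundant being c181544_g1_i1 with 5857 reads in T4, 334 in T25 and 188837 in T40. The list for the moulting hormone ecdysone was split 1 to 3. Its one higher unigene, the biosynthetic CYP306A1 c183552_g1_i3, had 377 reads in T4 and 38 in T25, and ecdysone 20-monooxygenase c183433_g9_i2, which makes the active form, had 3607 reads in T4 and 6649 in T25. Both takeout-like unigenes of the juvenile hormone binding family were higher, c165891_g3_i6 with 406 reads in T4 and 10 in T25 (31.2-fold higher, interval 16.8 to 65.5). The insulin-like receptor c187380_g1_i1, of growth control, had 1840 reads in T4 and 3423 in T25, and the other unigene of its list was 9.98-fold higher.

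The clock list was split 4 to 3, with its core members below control, and of its 4 unigenes whose larger count was 100 reads or more 1 was higher. Period, c187437_g4_i2, and timeless, c183087_g1_i2, form the inhibitory complex of the daily clock in flies, and their messages cycle over the day. Period had 5202 reads in T4 and 10738 in T25 (2.69-fold lower, interval 2.60 to 2.78), and timeless had 6356 reads in T4 and 13544 in T25 (2.77-fold lower, interval 2.69 to 2.86). The time of day at which each pool was frozen is not given in the sources used here. Cryptochrome c183973_g7_i1, a light sensor of the fly clock, had 19 against 2 reads.

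Transcription factors were lower in 68 of 112 unigenes, and zinc finger proteins made up 74 of the listed unigenes, 27 higher and 47 lower. The Krueppel-like factor luna c187863_g1_i1 had 44 reads in T4 and 2429 in T25 (71.9-fold lower, interval 53.4 to 99.2) and 81 in T40. Kayak, the insect Fos, of stress and wound responses, was lower in both listed unigenes, c187176_g3_i1 with 1322 reads in T4 and 2972 in T25 and c187360_g2_i1 with 165 against 607 reads. The homeobox protein unc-4 unigene c186135_g4_i3, a neuronal factor, had 1200 reads in T4 and 167 in T25 (5.52-fold higher, interval 4.69 to 6.53) and 26 in T40.

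RNA processing and ribosome assembly were mostly lower. Unigenes of ribosome biogenesis and of RNA polymerases I and III were lower in 12 of 15, with a summed level of 67.4 RPM in T4 and 278 in T25. Those 9 whose larger count was 100 reads or more were all lower. Nucleolar GTP-binding protein 1 c188066_g3_i1, of the large ribosomal subunit, had 1257 reads in T4 and 4776 in T25 (4.95-fold lower, interval 4.65 to 5.27), and nucleolar protein 6 c188609_g1_i1, of the small one, had 7 reads in T4 and 181 in T25 (33.7-fold lower, interval 16.0 to 84.9) and 372 in T40. Splicing and RNA helicase unigenes were lower in 19 of 28, among them PRP31 c179835_g1_i1 with 197 reads in T4 and 658 in T25. Translation factors were split 8 to 5.

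**Figure D5:**
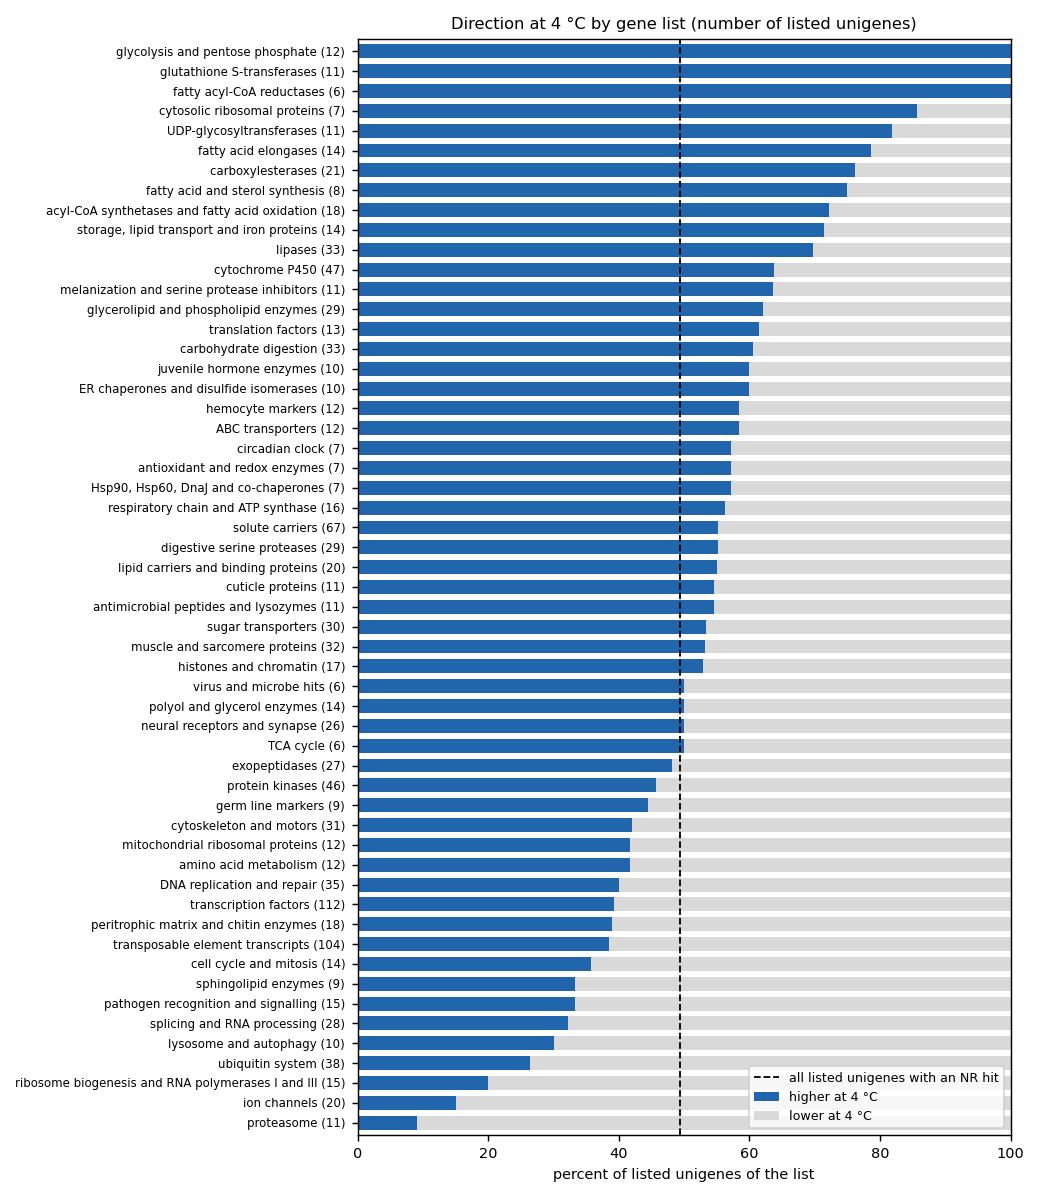
Percent of the listed unigenes of each list that were higher (blue) or lower (grey) at 4 °C, for lists with 6 or more listed unigenes, whose number stands in brackets. The dashed line marks the 49.4% of all listed unigenes with an NR hit that were higher, and the bars run from glycolysis (12 of 12 higher), glutathione S-transferases (11 of 11) and acyl-CoA reductases (6 of 6) at the top to the proteasome (1 of 11) at the bottom.

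Pfam domains were counted as well, over many of the same unigenes. Of 13 unigenes with an ion transport domain 12 were lower, with a median log2 ratio of -1.85, and of 13 with the rhodopsin-like receptor domain (7tm_1) 10 were lower. Of 22 with a short-chain dehydrogenase domain 18 were higher, with a median of 2.73. The JHBP domain, shared by takeout and juvenile hormone binding proteins, was found in 11 unigenes, of which 10 were higher with a median of 2.59. Of 30 carboxylesterase domains 22 were higher, and of 13 with the glycosyl hydrolase family 1 domain of myrosinases 9 were lower. Trypsin domains were split 22 to 24. The FLYWCH zinc finger, found in 18 unigenes, was lower in 17.

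Tissue markers differed in several directions, and their part in the results above was not tested. Muscle and sarcomere unigenes were 17 higher and 15 lower, with a summed level of 3556 RPM in T4 against 10754 in T25. The giant proteins twitchin, titin and obscurin, which span the sarcomere, were lower in 13 of 14. Twitchin c189597_g1_i1 had 59078 reads in T4 and 144646 in T25 (3.19-fold lower, interval 3.16 to 3.22) and 9327 in T40, and titin c189427_g2_i1 had 11671 reads in T4 and 46659 in T25 (5.21-fold lower, interval 5.10 to 5.31). By contrast, all 4 fragments of muscle myosin heavy chain were higher, the largest being c99163_g1_i1 with 869 reads in T4 and 17 in T25 (39.3-fold higher, interval 24.4 to 67.7). Flightin c234566_g1_i1, a thick filament protein of flight muscle in flies, had 568 reads in T4 and 1331 in T25.

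The other marker lists were smaller. The storage and transport list of the fat body summed to 117062 RPM in T4 and 29443 in T25. Of these, 98995 and 27200 RPM were the storage protein unigene alone, and apolipophorins are not in that list. The cuticle list of the epidermis summed to 2825 and 1422, and digestive serine proteases of the midgut to 1223 and 727. Most of the cuticle sum in T4 came from larval cuticle protein 1-like c162995_g1_i3. The other cuticle unigenes together were lower in T4 than in T25. Hemocyte markers, a list that includes 5 disintegrin-type proteases, were higher in 7 of 12 and summed to 742 and 289, with hemocyte transglutaminase c186790_g1_i1, a clotting enzyme, at 12081 reads in T4 and 1302 in T25. Germ line markers were 4 higher and 5 lower, with vasa c185478_g4_i1 at 42 against 3 reads. In the list of sense organs, odorant binding protein 25 c168383_g1_i1 had 4741 reads in T4 and 604 in T25 (6.03-fold higher, interval 5.54 to 6.57) and 4 in T40, and odorant binding protein 17 c185017_g2_i1 had 595 reads in T4 and 8615 in T25 (18.9-fold lower, interval 17.4 to 20.5). A marker that is not listed may be present at like levels in both libraries, so none could be called absent.

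Unigenes with the same annotation did not always agree in direction, although in most sets they did. How often unrelated unigenes would disagree was not computed. Of 240 NR hits with at least 2 listed unigenes, 76 had unigenes on both sides (31.7%), and so had 476 of 1485 assembly components (32.1%). Twitchin isoform X2 is an example within 1 component, with c188833_g4_i1 at 6218 against 1104 reads (4.32-fold higher) and c188833_g1_i1 at 2821 against 11637 reads (5.37-fold lower). A glucose dehydrogenase hit was 46.3-fold higher for c186311_g1_i1, with 181 against 3 reads, and 44.0-fold lower for c188101_g2_i2, with 4 against 135. Unigenes of close paralogs, alleles or fragments of 1 gene can share reads, so the split of reads among such unigenes is uncertain.

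Mobile elements and bacteria made up part of the table. Transposable element transcripts were lower in 64 of 104 unigenes and summed to 530 RPM in T4 and 1352 in T25. The unigene c189538_g1_i2, an IS630 family transposase whose best hit is in *Escherichia coli*, had 777 reads in T4 and 16453 in T25, and without it the sums were 509 and 764 RPM. Of the 38 unigenes with a bacterial genus as the best hit 28 were higher at 4 °C and 10 lower, yet their summed reads were 10573 in T4 and 30158 in T25. That sum rested on c189538_g1_i2 and on c179895_g1_i1, a hypothetical protein of *Enterococcus durans* with 2033 reads in T4 and 10136 in T25. Without both, chosen after their values were seen, the summed reads were 7763 in T4 and 3569 in T25. *Enterococcus*, a gut bacterium of caterpillars, was named for 24 of them, with 20 higher and 4 lower. All 6 bacterial ribosomal protein unigenes were higher, with at most 86 reads in T4. The libraries were made with a kit that selects poly(A) tails, which most bacterial transcripts lack.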

How the data were processed

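RNA of whole larvae was sequenced as 1 pooled library per temperature. Per the labels and the study's methods, the authors trimmed reads with Trimmomatic 0.38, checked them with FastQC 0.11.7, assembled them de novo with Trinity, clustered the contigs with CD-HIT and aligned each library with Bowtie 1.1.2. The authors deposited estimated counts per unigene (expected counts from RSEM), FPKM values (scaled by unigene length and library size) and log2 normalized values. The deposited log2 values equalled the log2 of 1 plus the count scaled to 1000000 of an effective library size, and those sizes scaled every fold here. DESeq2 is named in the submitters' processing notes. Their fold change and p-value columns were not used. The deposited table lists only unigenes that the authors selected, so no low-count filter could be undone and no dispersion could be estimated.

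Ratios, exact intervals, list counts and domain counts were computed with Python 3.11.15, numpy 2.4.6, pandas 2.3.3 and scipy 1.17.1. The interval was tested on simulated counts with counting error only, as it assumes, so that test checks the computation and no other error. Alternative scaling factors (TMM) came from edgeR 4.0.16 in R 4.3.3. Lists were matched to NR descriptions, or to the KO_EUK annotation where NR gave none, and 1 unigene can be in several. The members, lists and families were chosen with earlier results of these data known. Unigenes were named by rule: among named proteins the 12 largest differences in RPM each way, the 12 highest and 12 lowest ratios whose larger count was 100 reads or more, the 3 highest and 3 lowest of each list with at least 50 reads, every member of lists of up to 6, and unigenes that the study itself singled out. Not every unigene that met the rule is named above. The unigenes named outside the rule, and the families such as maltases, were chosen after their values were seen. Alternatives changed the scaling, the count filter, the pseudocount and the unit counted.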

Additional observations from a re-analysis of the deposited data

How the results depend on the processing

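No paired analysis was possible because each temperature has 1 library, and for the same reason no library could be left out. TMM factors, summed listed reads, trimmed read totals and FPKM moved the median ratio by -0.09, -0.64, -0.13 and -0.09 on the log2 scale. With a smallest listed fold of 2.35, shifts of that size could not turn the direction of a unigene, so the unchanged directions carry no information on stability. Summed levels of a list can lie closer. A shift of -0.64 would turn the sums of recognition and signalling (636 against 591 RPM) and of sphingolipid enzymes (390 against 342 RPM), among others. The share higher at 4 °C was 56.5% where the larger count was 100 or more and 52.1% where the smaller was 5 or more. Fewer were higher than lower with an NR hit only (49.4%) or 1 unigene per NR hit (49.0%). Past 4-fold, 3101 were higher and 5285 lower with summed listed reads as library sizes, against 4869 and 3673. With a larger count of 100 or more, a smaller count of 5 or more, 1 unigene per NR hit, an NR hit only or 10 reads added, 1412, 2293, 1004, 1146 and 1476 were higher and 945, 1997, 841, 944 and 1403 lower. The first 4 of these settings test fewer unigenes, and adding reads shrinks ratios of low counts. The share of assembly components with unigenes on both sides was 23.01% for larger counts of 100 or more, 29.2% for smaller counts of 5 or more, 26.2% with 1 unigene per NR hit and 29.1% past 4-fold, for causes not tested. Without bacterial 30S and 50S hits, chosen after seeing the data, 1 unigene of the cytosolic ribosomal list was left, and it was lower (0% higher). Without the 2 bacterial hits with most T25 reads, also chosen then, the log2 ratio of summed RPM turned from -1.89 to 0.74, and without the first of them that of transposable elements went from -1.35 to -0.59. Of 54 lists that had 6 or more unigenes in all and kept 3, the majority changed side in 5 with larger counts of 100 or more, namely sugar transporters (11 of 25 higher), respiratory chain (4 of 9), mitochondrial ribosomal proteins (4 of 7), clock (1 of 4) and chromatin (5 of 11), and in 2 with smaller counts of 5 or more, sugar transporters and clock. Past 4-fold it changed in 1 of 52, DNA replication and repair (11 of 21), and with 1 unigene per NR hit in 0 of 55. Lists with at least 2 in 3 unigenes on one side numbered 19, and 28, 23, 24 and 19 under these settings in turn. Depth limits the 3536 unigenes with at most 3 reads in the lower library, whose ratios have wide intervals.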

Other observations

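Unigenes outside the lists held some of the widest ratios. Retinol dehydrogenase 11-like c182737_g1_i2, a short-chain dehydrogenase, had 1100 reads in T4, 4 in T25 and 111 in T40. Senecionine N-oxygenase c172296_g1_i2, a flavin enzyme that detoxifies plant alkaloids in some moths, had 721 reads in T4, 3 in T25 and 32 in T40. On the other side, methyltransferase-like protein 13 c177970_g2_i1 had 55 reads in T4, 7678 in T25 and 57 in T40, so that the control library stood apart from both others. The same was seen for the jockey-type mobile element c186618_g3_i2, with 43 reads in T4, 5096 in T25 and 22 in T40.

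Of the 12173 listed unigenes, 7532 were matched in none of the 7 databases, and 57.3% of those were higher at 4 °C. Their median count in the higher library was 39 reads, against 221 with an NR hit.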
